A study of Schizosaccharomyces pombe with 7 samples.

Results

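The mcp7 island is a short domain of dimethylated histone H3 lysine 9 (H3K9me2), the histone mark of heterochromatin, on the left arm of chromosome 1 of the fission yeast Schizosaccharomyces pombe. It covers the meiotic gene mcp7 and the housekeeping gene ubp8, and ysp2 lies just beyond it. The region was taken as every non-control probe of chromosome 1 from the left neighbour of array position 576300 through 585900. This gave 34 of the 41551 probes of a tiling array that carries a 60-base probe every 300 bp. A probe entered the tests if its spot was uniform, and its whole-cell extract signal well above background, on all 6 H3K9me2 arrays. That held for 29 of the 34 probes of the region and for 33704 probes of the whole array.

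ChIP-chip compares DNA recovered with an antibody to the whole-cell extract on one 2-colour array. H3K9me2 was measured in fft3∆ cells, in which the gene for the Snf2-family chromatin remodeller Fft3 is deleted (1 array each in series 2 and 3), in UV21 cells, a strain for which the labels give no more than this name (1 array, series 1), and in WT cells (1 array each in series 1, 2 and 3). All of these were growing exponentially in rich medium (YEA) at 30 °C, a state of vegetative growth. Fft3-GFP, the remodeller tagged with green fluorescent protein, was measured with a GFP antibody in cells labelled WT (1 array), which were held at 18 °C for 6 h and fixed with dimethyl adipimidate as well as paraformaldehyde. The labels do not say whether the series are separate cultures, so p-values measure the spread between these arrays, which may be technical.

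In growing cells, meiotic transcripts are kept low by RNA elimination: the YTH-domain protein Mmi1 binds a short motif, UNAAAC, that is repeated in these RNAs and hands them to Red1, its partners and the nuclear exosome. At some of the target genes the same factors bring the methyltransferase Clr4, which writes H3K9 methylation, and the resulting small domains are known as meiotic heterochromatin islands. Mcp7 is the fission yeast homologue of Mnd1, a protein of meiotic recombination. Ubp8 is the ubiquitin protease of the SAGA coactivator complex, ysp2 encodes a leucyl aminopeptidase, and erg11, on the other side of mcp7, encodes sterol 14-demethylase of ergosterol synthesis.

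In the ASM294v3 assembly mcp7 is annotated on the plus strand at chr1:578450-579948 and ubp8 on the minus strand at chr1:579353-581480, so the ends of these converging genes overlap. Upstream of mcp7, erg11 is annotated on the minus strand at chr1:574652-577153, and ysp2 follows ubp8 on the plus strand at chr1:582272-584402. The build behind the array positions is not given in the sources used here. Along the left arm of chromosome 1 the GC content of the assembly matched the extract signal best at a shift of -800 bp (assembly minus array position, r = 0.251 over 12504 probes). The 100 kb around mcp7 alone matched best at -970 bp (r = 0.332 over 333 probes). There the shift of the arm gave r = 0.223, not far above the 0.194 of the best distant shift. With the shift of the arm, array positions are 575452 to 577953 for erg11, 579250 to 580748 for mcp7, 580153 to 582280 for ubp8 and 583072 to 585202 for ysp2. Probe positions below are array positions, and gene edges are uncertain by the gap between these shifts.

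The motif of Mmi1 is dense in the mcp7 RNA. Written as TNAAAC in DNA, where N is any base and the motif cannot overlap itself, it occurred 10 times in the 1405 nucleotides of the annotated mcp7 mRNA. That is 7.12 sites per kb, against a median of 1.64 sites per kb over 5124 annotated mRNAs, and 0.429% of these mRNAs held at least as many per kb. At least 1 site was present in 89.4% of mRNAs, with a median of 3. Of the 10 sites, 3 lay before the start codon, 5 in the coding sequence and 2 after the stop codon, and the opposite strand held 4. The 5 coding sites lay within 194 bases. They are shown here because, at the shift of the arm, they fall between the probes at 579600 and 579900, where the island is high, and the capitals mark the 5 matches:
mcp7 coding sequence, ASM294v3 chr1:578887-579080, plus strand: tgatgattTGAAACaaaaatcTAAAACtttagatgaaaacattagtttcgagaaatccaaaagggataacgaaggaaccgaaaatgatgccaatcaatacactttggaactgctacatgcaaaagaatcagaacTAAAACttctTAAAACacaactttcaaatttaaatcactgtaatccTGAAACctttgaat
Stretches of this length with at least 5 sites occurred in 13 of 5080 coding sequences (0.256%). At the shift of the arm the stretch covers array positions 579687 to 579880, and at the shift of the surrounding 100 kb it would lie further right, over probe 579900. The neighbours carried fewer sites for their length, with 3.87 per kb in ubp8 (7 sites, a density reached by 5.11% of mRNAs), 1.41 per kb in ysp2 (3 sites, reached by 60.0%) and 1.20 per kb in erg11 (3 sites, reached by 67.5%). A match describes these letters and is no measurement of binding.

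The whole-array checks bear on these results as follows. The probes over fft3 lost their extract signal in fft3∆, where their mean was 0.308% and 0.316% of the array median, against 47.8% to 76.0% on the other 5 arrays. Non-uniform spots made up 0.0457% to 12.3% of an H3K9me2 array, most on WT series 3, and the lowest extract signal of a probe in the region was still 8.29 times its background. Series 3 was read with a different extraction protocol from the rest, and this difference holds both groups of that series alike.

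With fft3 deleted, H3K9me2 over mcp7 and ubp8 was no longer a domain by the rule that found 1 island, with the same ends, on all 3 WT arrays. Values are log2 of the processed ChIP signal over the processed extract signal, minus the median of the array, so 0 is the level of a typical probe and 1 is 2-fold above it. The ends of an island were set where the running mean of 3 neighbouring probes fell below 1. In fft3∆ series 2 the highest running mean was 0.87 around 580500, at the end of mcp7, with its top probe 580800 at 1.05. In fft3∆ series 3 the highest running mean of the region, 0.64, lay around 585300, past ysp2. With normexp background correction these peaks were 1.05 around 579600 in series 2, where 1 probe then reached the limit, and 0.99 around 580200 in series 3, both inside mcp7.

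In UV21 the running mean stayed at or above 1 at the 2 neighbouring probes 579600 and 579900, a width of 360 bp, with a peak of 1.20 and a top probe of 1.40 at 579600. In WT series 1, 2 and 3 the island ran from 578700 to 582000, over 11 probes and 3360 bp. The running mean peaked at 2.94 around 579600 in WT series 1, at 3.02 around 579900 in series 2 and at 3.66 around 580200 in series 3, all inside mcp7. The highest single probe was 579900 in WT series 1 and 2, at 3.04 and 3.25, and 580500 in WT series 3, at 3.76. By this rule the WT island began upstream of mcp7 and reached through ubp8, and it ended before ysp2. The upstream start depends on the rule. With single probes, at a limit of 1.5 or at 0.5 times the peak, all 3 WT arrays began at 579300, the first probe of mcp7. With non-uniform spots kept they began at 579000. At a limit of 0.5 the WT domain ran from 578700 to 582900 in series 1 and 2 and from 578100 to 582300 in series 3. At a limit of 0.5 the remaining domain spanned 579600 to 581100 in fft3∆ series 2 and 579300 to 581400 in UV21, both within the span seen in WT.

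**Figure D1:**
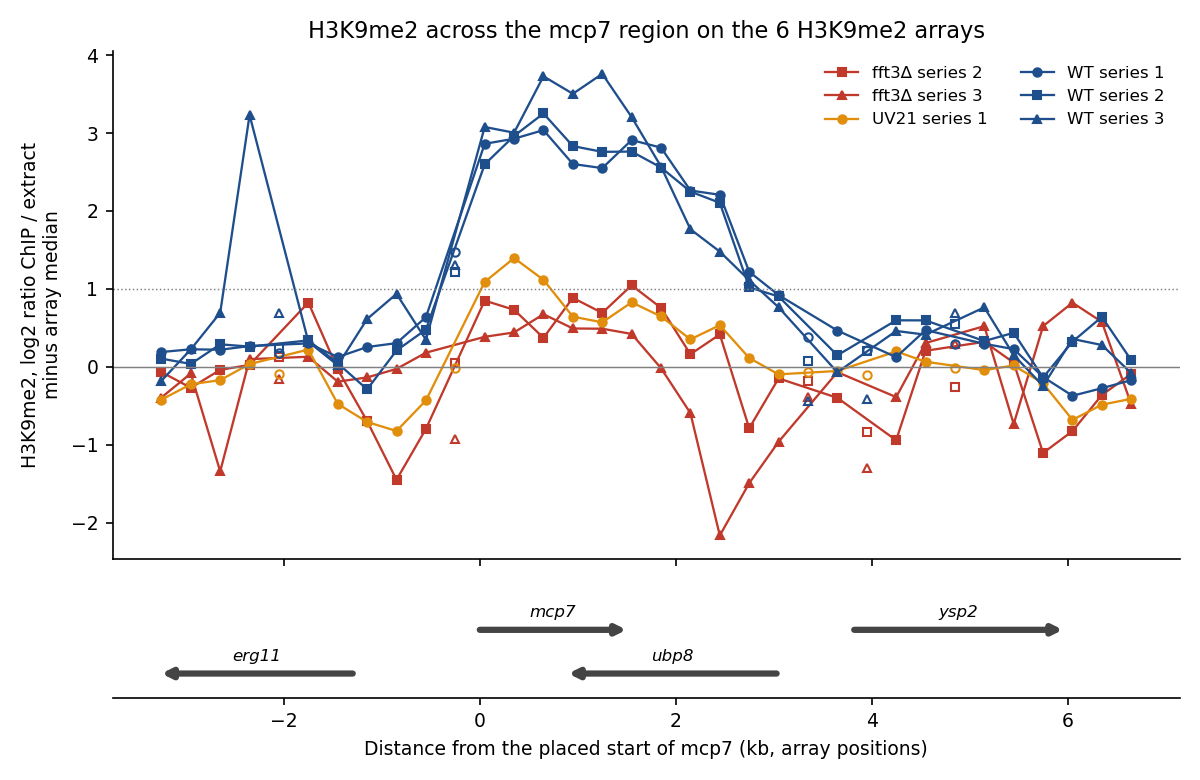
H3K9me2 at the 34 probes of the region on the 6 H3K9me2 arrays, as the log2 ratio of ChIP over whole-cell extract minus the array median (y axis), against the distance from the placed start of mcp7 in kb (x axis); filled points joined by lines are the 29 probes that passed the filters, open points the other 5, the dotted line marks the limit of 1 used for the island's ends, and arrows below show the genes. The fft3∆ and UV21 arrays stay at or below 1.40 throughout the island, while the 3 WT arrays run together over mcp7 and ubp8 with top values of 3.04, 3.25 and 3.76 there.

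Averaged over the 11 probes of the island, H3K9me2 was 0.39 and -0.11 in the 2 fft3∆ arrays, 0.62 in UV21, and 2.37, 2.33 and 2.50 in WT. The fft3∆ mean of 0.14 ± 0.35 (SD, n = 2) was 4.77-fold below the WT mean of 2.40 ± 0.09 (SD, n = 3). UV21 was 3.42-fold below that WT mean, from 1 array. The island's probes were chosen on the WT arrays, so these means are a description and carry no test. The 3 WT arrays lay within 0.18 of one another, whereas the 2 fft3∆ arrays were 0.50 apart.

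The height of the island above its own surroundings does not depend on how an array is centred. It was 0.67 and -0.01 in fft3∆ and 0.86 in UV21, against 2.17, 2.05 and 2.02 in WT, taking the island mean minus the mean of the other 18 probes. The fft3∆ series 3 array therefore held no island by this measure, while fft3∆ series 2 and UV21 kept a low one. The mean difference from WT was -1.75 for fft3∆ and -1.22 for UV21. Within series it was -1.38 in series 2 and -2.03 in series 3 for fft3∆, and -1.31 in series 1 for UV21. The 18 probes include 576900, saturated at 3.23 on WT series 3. The left flank averaged 0.73 on that array, against 0.24 and 0.13 in WT series 1 and 2. They also include 582300, still at 0.92, 0.90 and 0.76 in WT. The first lowers the height of WT series 3, and the second that of all 3 WT arrays. Over the 29 probes, which share their base composition and neighbouring fragments, the profile correlated with the WT mean profile at r = 0.70 for fft3∆ series 2, r = 0.17 for fft3∆ series 3 and r = 0.88 for UV21.

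The values at each probe follow, from erg11 rightwards. At the first probe, over erg11, the log2 ratio was -0.07 and -0.39 in fft3∆, -0.42 in UV21, 0.19, 0.11 and -0.18 in WT, and 0.47 for Fft3-GFP. At 576300 it was -0.27 and -0.08 in fft3∆, -0.22 in UV21, 0.23, 0.04 and 0.22 in WT, and 0.44 for Fft3-GFP. At 576600 the arrays read -0.04 and -1.34 in fft3∆, -0.17 in UV21, 0.22, 0.29 and 0.69 in WT, and 0.48 for Fft3-GFP. These probes lay near the array median in all strains, apart from a low value in fft3∆ series 3 and a raised one in WT series 3. Probe 576900 gave 0.03 and 0.10 in fft3∆, 0.04 in UV21, 0.27, 0.26 and 3.23 in WT, and 0.31 for Fft3-GFP. WT series 3 stood far above all other arrays there, and its spots at 576600 and 576900 were flagged as saturated. The next probe, 577200, was non-uniform on WT series 3 and read 0.13 and -0.16 in fft3∆, -0.09 in UV21, 0.17, 0.25 and 0.69 in WT, and 0.08 for Fft3-GFP. At 577500 the ratios were 0.83 and 0.13 in fft3∆, 0.22 in UV21, 0.30, 0.34 and 0.32 in WT, and 0.48 for Fft3-GFP. At 577800, the last probe of erg11, they were -0.03 and -0.19 in fft3∆, -0.47 in UV21, 0.13, 0.05 and 0.02 in WT, and -0.12 for Fft3-GFP. Across erg11 fft3∆ and WT overlapped at 2 of the 6 probes kept in the region. At 576300, 576600, 576900 and 577800 both fft3∆ arrays lay below every WT array, which held for 22.7% of all probes. The high Fft3-GFP values over this gene are taken up below.

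Between erg11 and mcp7 lie the overlapping non-coding RNAs SPNCRNA.155 and SPNCRNA.2242, annotated on opposite strands. Probe 578100 read -0.70 and -0.14 in fft3∆, -0.71 in UV21, 0.26, -0.29 and 0.61 in WT, and -0.11 for Fft3-GFP. At 578400 the values were -1.45 and -0.03 in fft3∆, -0.82 in UV21, 0.30, 0.21 and 0.94 in WT, and -0.40 for Fft3-GFP. At 578700, where the WT island began, they were -0.80 and 0.18 in fft3∆, -0.43 in UV21, 0.64, 0.48 and 0.35 in WT, and -0.42 for Fft3-GFP. Single WT values were still below 1 here, and fft3∆ series 2 and UV21 fell under their array medians. Probe 579000, left out because it was non-uniform on fft3∆ series 3, read 0.05 and -0.92 in fft3∆, -0.02 in UV21, 1.47, 1.22 and 1.31 in WT, and -0.16 for Fft3-GFP. WT was above 1 and the other strains near or below 0 at that last probe before mcp7.

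Inside mcp7 all 5 probes passed the filters. The first, 579300, read 0.85 and 0.39 in fft3∆, 1.09 in UV21, 2.86, 2.60 and 3.08 in WT, and 0.09 for Fft3-GFP. At 579600 the ratios were 0.73 and 0.44 in fft3∆, 1.40 in UV21, 2.93, 2.96 and 3.00 in WT, and 0.00 for Fft3-GFP. Probe 579900 gave 0.37 and 0.68 in fft3∆, 1.12 in UV21, 3.04, 3.25 and 3.73 in WT, and 0.26 for Fft3-GFP. The 3 WT values of each probe lay above 2.5, and no fft3∆ value reached 1. At 580200, in the overlap with ubp8, they were 0.89 and 0.49 in fft3∆, 0.64 in UV21, 2.60, 2.83 and 3.50 in WT, and 0.13 for Fft3-GFP. At 580500 the arrays gave 0.69 and 0.49 in fft3∆, 0.57 in UV21, 2.55, 2.76 and 3.76 in WT, and -0.04 for Fft3-GFP. WT series 3 was the highest WT array at both, and UV21 lay between the 2 fft3∆ arrays.

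The rest of ubp8 carried a slope down to the right. Its probe 580800 read 1.05 and 0.42 in fft3∆, 0.83 in UV21, 2.91, 2.76 and 3.20 in WT, and -0.01 for Fft3-GFP. At 581100 it was 0.76 and -0.02 in fft3∆, 0.65 in UV21, 2.81, 2.56 and 2.57 in WT, and -0.16 for Fft3-GFP. At 581400 the ratios were 0.16 and -0.59 in fft3∆, 0.35 in UV21, 2.26, 2.25 and 1.77 in WT, and -0.24 for Fft3-GFP. The WT arrays stayed close together, while fft3∆ series 3 had gone below its array median. Probe 581700 read 0.42 and -2.16 in fft3∆, 0.54 in UV21, 2.21, 2.10 and 1.48 in WT, and -0.17 for Fft3-GFP. At 582000, the last probe of the island, the values were -0.79 and -1.49 in fft3∆, 0.11 in UV21, 1.22, 1.02 and 1.11 in WT, and -0.33 for Fft3-GFP. WT was about 1 log2 unit lower at the second of these neighbours in series 1 and 2, and fft3∆ series 3 had its lowest values of the region here.

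Beyond the island the fft3∆ arrays lay below all WT arrays at some probes and overlapped them at others. Probe 582300 read -0.15 and -0.96 in fft3∆, -0.10 in UV21, 0.92, 0.90 and 0.76 in WT, and -0.35 for Fft3-GFP. At 582600, non-uniform on UV21, the values were -0.19 and -0.39 in fft3∆, -0.06 in UV21, 0.38, 0.07 and -0.44 in WT, and -0.34 for Fft3-GFP. At 582900 they were -0.40 and -0.07 in fft3∆, -0.05 in UV21, 0.47, 0.15 and -0.07 in WT, and -0.22 for Fft3-GFP. WT came down to near its array median within these probes. Over the start of ysp2, probe 583200 was also non-uniform on UV21 and read -0.84 and -1.30 in fft3∆, -0.11 in UV21, 0.22, 0.20 and -0.42 in WT, and -0.19 for Fft3-GFP. At 583500 the ratios were -0.94 and -0.39 in fft3∆, 0.20 in UV21, 0.12, 0.60 and 0.46 in WT, and -0.11 for Fft3-GFP. Probe 583800 gave 0.21 and 0.31 in fft3∆, 0.07 in UV21, 0.47, 0.60 and 0.41 in WT, and -0.11 for Fft3-GFP. WT stayed between 0.1 and 0.6 at the last pair, with fft3∆ below it. At 584100, non-uniform on WT series 3, the arrays read -0.26 and 0.29 in fft3∆, -0.02 in UV21, 0.30, 0.55 and 0.69 in WT, and -0.07 for Fft3-GFP. At 584400 they read 0.32 and 0.52 in fft3∆, -0.04 in UV21, 0.30, 0.33 and 0.76 in WT, and -0.04 for Fft3-GFP. Probe 584700 gave 0.05 and -0.73 in fft3∆, 0.02 in UV21, 0.23, 0.44 and 0.15 in WT, and -0.06 for Fft3-GFP. The groups overlapped at 584400, where fft3∆ series 3 exceeded WT series 1 and 2. At 585000 the ratios were -1.10 and 0.52 in fft3∆, -0.21 in UV21, -0.13, -0.14 and -0.24 in WT, and -0.06 for Fft3-GFP. Just past ysp2, probe 585300 read -0.82 and 0.82 in fft3∆, -0.68 in UV21, -0.37, 0.32 and 0.36 in WT, and -0.18 for Fft3-GFP. At 585600 the values were -0.36 and 0.58 in fft3∆, -0.48 in UV21, -0.27, 0.64 and 0.28 in WT, and -0.17 for Fft3-GFP. At 585900, the last probe, they were -0.09 and -0.48 in fft3∆, -0.41 in UV21, -0.17, 0.09 and -0.08 in WT, and -0.16 for Fft3-GFP. The fft3∆ arrays lay on both sides of WT at 585000 and 585300, series 3 above and series 2 below.

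Tested probe by probe with limma across the whole array, 9 of the 29 probes were lower in fft3∆ than in WT at a Benjamini-Hochberg adjusted p under 0.05, against 2.07% of all probes tested, and 0 were higher, against 0.0386% of all probes. The island was drawn from the same WT arrays, so the split of calls between its 11 probes and the others is a description only. All 9 called probes lie in the island, and together they cover mcp7 and ubp8. They are 579300, 579600, 579900, 580200, 580500, 580800, 581100, 581400 and 582000, with differences from -2.81 (SE 0.30, adjusted p = 0.0267) at 579900 to -2.22 (SE 0.30, adjusted p = 0.0307) at 580800. The remaining island probes did not pass: 581700 differed by -2.80 with an SE of 0.68 (limma adjusted p = 0.0872), its fft3∆ arrays lying far apart, and 578700 by -0.80 (adjusted p = 0.287). Outside the island 0 of 18 probes passed, with 4 lower at an unadjusted p under 0.05 (13.4% of all probes were), and the nearest to a call was 582300 at -1.42 (limma adjusted p = 0.0677). Both fft3∆ arrays lay below all 3 WT arrays at 20 of the 29 probes, against 22.7% of all probes. The number of calls rests on the WT arrays. Without WT series 1 or without WT series 3 it was 0, and it was then 0 over all 33704 probes too. Without WT series 2 it was 5, and 277 of the 33704 probes were then called lower.

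**Figure D2:**
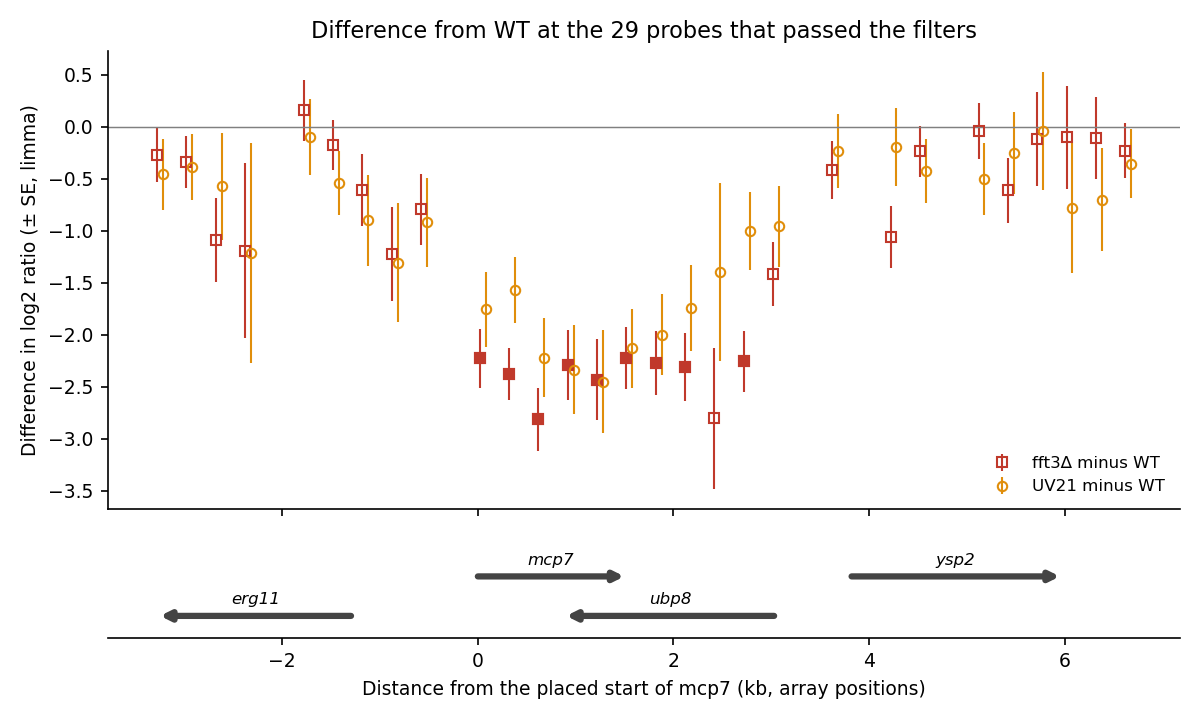
Difference in H3K9me2 from WT at the 29 probes that passed the filters (y axis, log2, error bars are limma standard errors) against the distance from the placed start of mcp7 in kb (x axis), for fft3∆ (squares) and UV21 (circles); filled squares are the 9 probes with an adjusted p under 0.05. The fft3∆ differences lie between -2.81 and -2.22 at those 9 probes and the UV21 differences follow them over mcp7 with larger error bars.

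By gene, H3K9me2 fell over mcp7 and ubp8 in fft3∆. The mean over the 5 probes of mcp7 was 0.71 and 0.50 in fft3∆, against 2.80, 2.88 and 3.41 in WT. The groups did not overlap, and the lowest WT array was about 2 log2 units above the highest fft3∆ array. The difference between the means, 0.60 ± 0.15 in fft3∆ (SD, n = 2) and 3.03 ± 0.34 in WT (SD, n = 3), was -2.43 (SE 0.23, limma adjusted p = 0.00933), a 5.38-fold lower ratio. It was -2.17 within series 2 and -2.92 within series 3. Without WT series 3 it was -2.24 with an adjusted p of 0.0600 by limma, and in that fit 1 gene in all was called lower.

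Over ubp8 the fall was of similar size. The mean over its 7 probes was 0.45 and -0.41 in fft3∆, against 2.37, 2.33 and 2.48 in WT. Both fft3∆ arrays were again well below WT, but they differed from each other by more than the WT arrays did. The means were 0.02 ± 0.61 in fft3∆ (SD, n = 2) and 2.39 ± 0.08 in WT (SD, n = 3), a difference of -2.37 (SE 0.26, limma adjusted p = 0.00933) or 5.17-fold. Within series it was -1.87 in series 2 and -2.89 in series 3. The limma adjusted p was 0.0518 without WT series 1 and 0.0619 without WT series 3. Probes 580200 and 580500 lie in both genes, so the values of mcp7 and ubp8 are not independent. An exact 2-sided permutation test over the 5 arrays gave p = 0.2 for each gene, the smallest it can give for 2 arrays against 3.

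On either side of the island no gene passed the test. Over ysp2, with 5 probes, the values were -0.29 and 0.05 in fft3∆, against 0.20, 0.37 and 0.31 in WT. The groups did not overlap, but the difference of -0.41 (limma adjusted p = 0.267) was of the size of the fft3∆ spread, and it became -0.24 without fft3∆ series 2 and 0.17 when arrays were centred on the pericentromeres. Over erg11 the values were 0.07 and -0.30 in fft3∆, against 0.22, 0.18 and 0.72 in WT, and the difference of -0.48 (limma adjusted p = 0.317) became 0.10 with that centring, -0.31 without WT series 3 and -0.30 without fft3∆ series 3. SPNCRNA.155 and SPNCRNA.2242 share the same 3 kept probes and differed by -0.87 (limma adjusted p = 0.187), with -0.98 and 0.01 in fft3∆ and 0.40, 0.13 and 0.63 in WT. SPNCRNA.662, which starts right of ysp2, differed by -0.41 (adjusted p = 0.344). The nearest gene outside the region on the right was pdc202, a pyruvate decarboxylase gene, which differed by -0.56 (limma adjusted p = 0.189). The short non-coding RNAs SPNCRNA.2241, SPNCRNA.2243, SPNCRNA.2244, SPNCRNA.2245, SPNCRNA.2246 and SPNCRNA.2248 had 1 kept probe each and were not tested as genes. Of mcp7, ubp8 and ysp2, 2 were thus called lower, against 4.56% of all 8648 genes tested, and all 3 had both fft3∆ arrays below every WT array, against 26.3% of all genes.

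**Figure D3:**
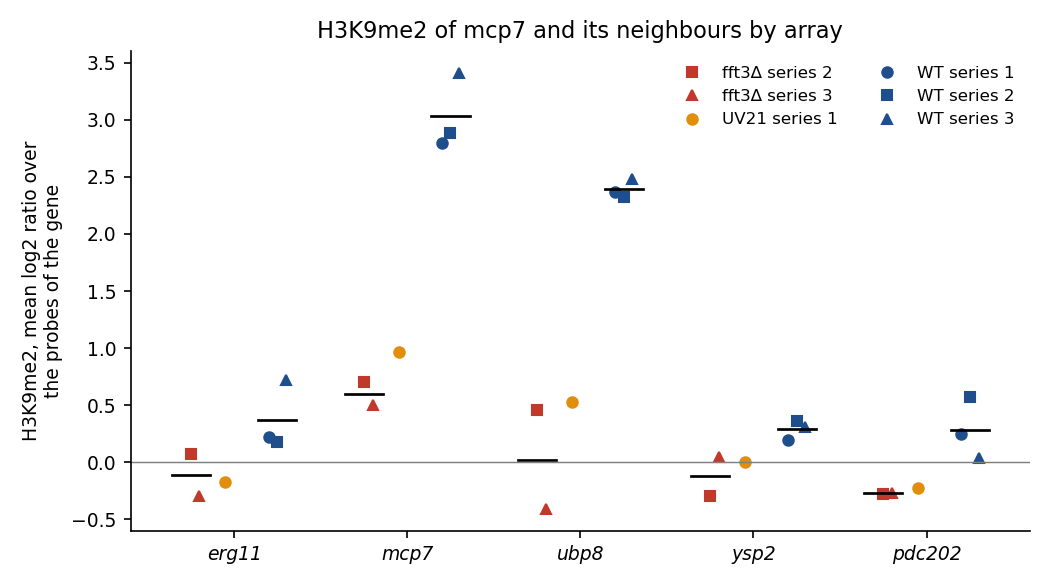
H3K9me2 of the 5 protein-coding genes of the region and its right edge on each H3K9me2 array, as the mean log2 ratio over the probes of the gene (y axis), with genes in chromosome order (x axis), fft3∆ left, UV21 in the middle and WT right in each; black bars are the means of the 2 fft3∆ and 3 WT arrays. For mcp7 and ubp8 all fft3∆ and UV21 points lie below 1 and all WT points above 2.3, whereas for erg11, ysp2 and pdc202 every point lies between -0.30 and 0.72.

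Windows of 2 kb, which need no gene placement, were also lower in fft3∆ over mcp7 and ubp8. The next window to the right, beyond the island as set at a limit of 1, was called as well. The window from 578001 to 580000 differed between fft3∆ and WT by -1.67 (SE 0.21, limma adjusted p = 0.00840) and the next, from 580001 to 582000, by -2.37 (SE 0.26, adjusted p = 0.00781). That second window holds the same 7 probes as ubp8. From 582001 to 584000 the difference was -0.78 (SE 0.16, limma adjusted p = 0.0333), a call that was lost under 8 of 16 alternatives. The 4 kept probes there all lie outside the island and none passed on its own. At a limit of 0.5, however, the WT domain reached 582900 in series 1 and 2 and 582300 in series 3. Under that limit the call does not show a loss beyond the island. The outer windows, from 576001 and from 584001, differed by -0.53 (adjusted p = 0.326) and -0.20 (adjusted p = 0.683), and the first of them by -0.30 without WT series 3 and -0.34 without fft3∆ series 3. Hence 3 of 5 windows were lower, against 5.3% of all windows.

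In UV21, compared with the same WT arrays, the island was also low, and no call passed across the array. Over mcp7 the single UV21 array read 0.96, against 2.80, 2.88 and 3.41 in WT, a difference of -2.07 or 4.19-fold (limma adjusted p = 0.259, unadjusted p = 0.00021). Over ubp8 it read 0.53, against 2.37, 2.33 and 2.48 in WT, a difference of -1.86 or 3.64-fold (limma adjusted p = 0.269). Within series 1 alone the differences were -1.83 for mcp7 and -1.84 for ubp8. In a limma fit of the WT and UV21 arrays only, ubp8 passed and mcp7 did not. In that fit UV21's own spread is still taken from WT. Over ysp2 UV21 read 0.01, a difference of -0.28, and over erg11 -0.17, a difference of -0.55, neither of which passed the test.

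Probe by probe 0 of 29 passed in UV21 by limma, as did 0% of all probes, and 10 of 29 had an unadjusted p under 0.05, against 2.39% of all probes. Of these 10, 9 lie in the island, which was drawn from the same WT arrays. The UV21 array lay below all 3 WT arrays at 26 of 29 probes, against 22.5% of all probes. The UV21 and fft3∆ comparisons share the WT arrays, so they are not independent of each other. The exact permutation test cannot go below 0.5 for 1 array against 3.

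The change lay mostly in the ChIP channel. Log2 processed Cy5 minus the array median, averaged over the island, was -0.22 and -0.52 in fft3∆ and 0.18 in UV21, against 1.85, 1.48 and 1.5 in WT. The extract channel, Cy3, was -0.61 and -0.42 in fft3∆ and -0.45 in UV21, against -0.47, -0.77 and -0.96 in WT. The mean difference from WT was -1.98 in ChIP and 0.22 in extract for fft3∆, and -1.43 in ChIP and 0.29 in extract for UV21. Within series the extract difference was 0.16 and 0.54 for fft3∆ in series 2 and 3, and 0.03 for UV21 in series 1. Extract values of the island lay below those of the flanks on all 7 arrays. At the shift of the arm its probes had a mean GC content of 35%, against 38.1% for the other kept probes.

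**Figure D4:**
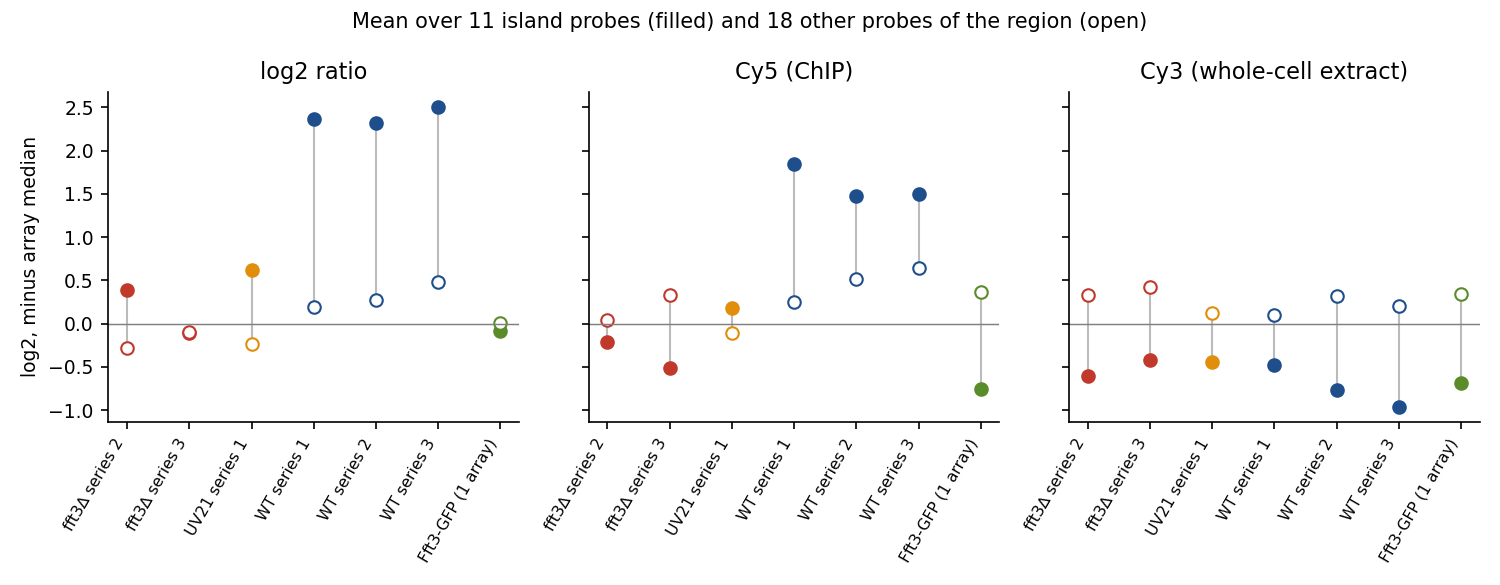
Mean over the 11 island probes (filled) and over the other 18 probes that passed the filters (open) on each of the 7 arrays (x axis), for the log2 ratio, the ChIP channel and the extract channel in 3 panels (y axis, log2 minus the array median). In the ratio the WT arrays stand at 2.37, 2.33 and 2.50 over the island, and in the extract panel the island lies below its flanks on every array.

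Fft3-GFP was not raised over the island on its 1 array. Its mean over the 11 island probes was -0.08, against 0.19 over the 8 probes to the left and -0.15 over the 10 to the right. Over mcp7 Fft3-GFP read 0.09, at percentile 69.4 of all genes, and over ubp8 -0.12, at percentile 26.4. The highest values of the region lay over erg11, with 0.34 and percentile 91.9, and the running mean peaked there at 0.46 around 576300. Over ysp2 it was -0.08, at percentile 35.4. The Fft3-GFP cells were held in the cold and fixed differently from the H3K9me2 cells, and the array has no replicate.

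Among other Mmi1-target genes, mcp7 belonged to those that lost H3K9me2 in fft3∆. Of 12 listed meiotic genes, all of which had probes, 5 were lower and 0 higher in fft3∆ by limma at an adjusted p under 0.05, against 4.56% lower and 0.104% higher among all genes. They had a median difference of -0.67, against -0.10 over all genes. The 5 are mei4 (a forkhead transcription factor of meiosis), ssm4 (a dynactin subunit), mcp7, num1 (also known as mcp5, a dynein anchor) and mug9. Centring on the pericentromeres kept the count at 5 and took the median to -0.09, against 0.49 over all genes, and the count was 3 without WT series 1 and 0 without WT series 3. For mei4 the level was 1.36 and 0.11 in fft3∆, 1.62 in UV21, and 4.13, 4.29 and 4.66 in WT, a difference of -3.62 (SE 0.37, limma adjusted p = 0.00933) between fft3∆ and WT. For ssm4 it was 0.94 and 0.19 in fft3∆, 0.80 in UV21, and 3.21, 3.38 and 3.65 in WT, a difference of -2.84 (SE 0.26, limma adjusted p = 0.00933). In fft3∆ mei4, ssm4 and mcp7 averaged 0.74, 0.57 and 0.60, and in WT 4.36, 3.41 and 3.03. On each WT array mcp7 was below ssm4, at differences from -0.49 to -0.23, and ssm4 below mei4.

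The fall at mcp7 was compared with those at mei4 and ssm4 on the difference between genes on each array. With 2 arrays against 3 the exact test cannot go below p = 0.2, so it cannot decide whether the falls differ. Of the genes outside the region, ssm4 was also the most like mcp7 on these same arrays (distance 0.80). A small change against it is therefore no independent result. mcp7 minus mei4 averaged -0.14 in fft3∆ and -1.33 in WT, a change of 1.19 (exact 2-sided permutation p = 0.2, the smallest possible with these arrays). mcp7 minus ssm4 averaged 0.04 in fft3∆ and -0.38 in WT, a change of 0.42 (exact permutation p = 0.4). The other falls were -1.68 for num1 (limma adjusted p = 0.0219) and -2.57 for mug9 (adjusted p = 0.0215). The 7 listed genes that did not pass had differences from -0.80 for jnm1 (mug1 in the list, adjusted p = 0.155) to -0.05 for spo5. These 7 carried little of the mark in WT, with WT means from -0.06 for rec10 to 0.73 for jnm1. WT means of the 5 called genes ran from 1.93 for mug9 to 4.36 for mei4. In UV21 0 of the 12 passed by limma, as did 0% of all genes, and 5 were lower at an unadjusted p under 0.05, against 2.58% of all genes, with a median of -0.44, against 0.01 over all genes.

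**Figure D5:**
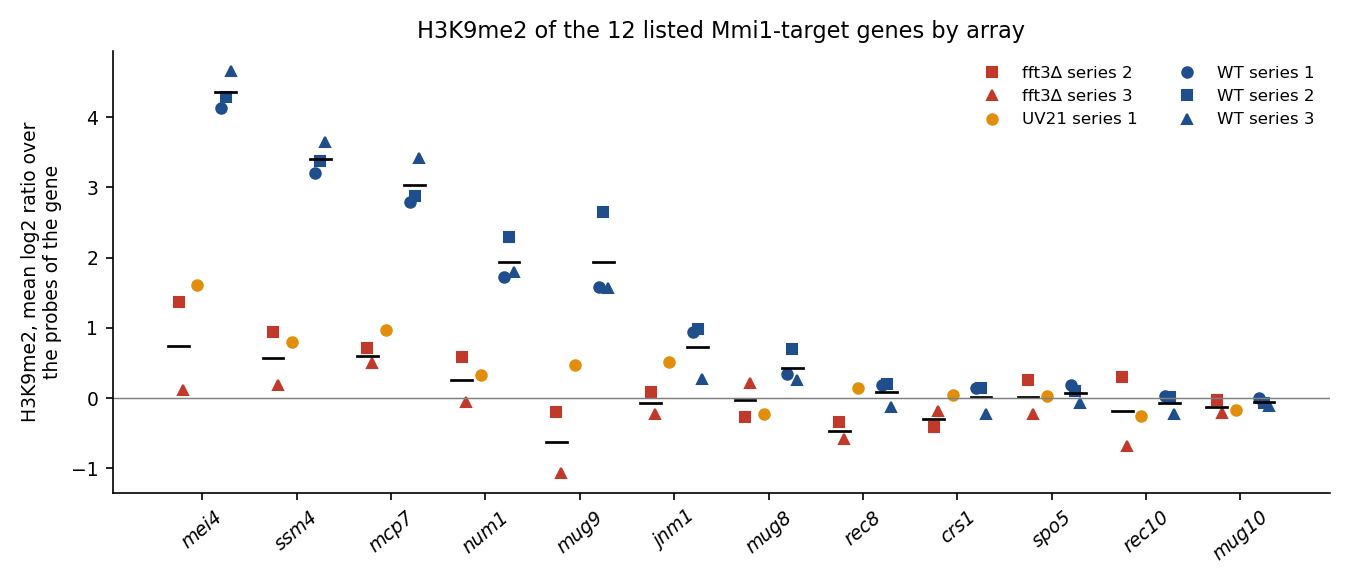
H3K9me2 of the 12 listed Mmi1-target genes on each H3K9me2 array, as the mean log2 ratio over the probes of the gene (y axis), with fft3∆ left, UV21 in the middle and WT right for each gene (x axis); black bars are the means of the fft3∆ and WT arrays. WT levels of mcp7 lie between 2.80 and 3.41, below mei4 and ssm4 and above the other 9 genes. Both fft3∆ points lie below every WT point for the first 5 genes and also for jnm1, mug8 and rec8. Among all genes tested this held for 26.3%.

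Among the genes of RNA elimination and H3K9 methylation no change was called at their own loci. Of 17 listed genes, among them mmi1, red1, rrp6, clr4, swi6 and epe1, 16 had at least 2 probes that passed the filters. By limma 0 were called in fft3∆ or in UV21. At an unadjusted p under 0.05, 1 and 0 were lower, against 16.3% and 2.58% of all genes. With 4.56% of all genes called lower in fft3∆ and 0% in UV21, a count of 0 is near the share among all genes. Their median difference was -0.0017 in fft3∆ and 0.01 in UV21. Their median WT level was -0.03, near that of a typical probe. A loss of the mark could therefore hardly be seen at these genes, and the 0 calls do not show that it was kept. These values are H3K9me2 over the genes and say nothing of their expression.

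By the Euclidean distance of the gene means over the 6 H3K9me2 arrays, ssm4 was the gene most like mcp7 among 8641 genes outside the region, at a distance of 0.80. The next 4 lay beside one another near the right end of chromosome 1, at array positions 5506637 to 5510365: SPNCRNA.4488 (0.85), SPAC869.03C, a urea transporter gene (0.90), SPAC869.04, a formamidase-like gene (0.95), and SPNCRNA.4489 (0.96). Their differences between fft3∆ and WT ran from -2.25 to -2.09, and each of the 4 passed the limma test. Because the genes were picked by likeness to mcp7 on these same arrays, such values follow from the choice and are a description. SPNCRNA.4489 lies within SPAC869.03C and SPNCRNA.4488 overlaps it, so their values are not independent. In UV21 these 4 read between 1.43 and 1.54, above the 0.96 of mcp7, and over them Fft3-GFP was between -0.39 and -0.31, against 0.09 over mcp7.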

How the data were processed

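H3K9me2 and Fft3-GFP ChIP DNA (Cy5) and whole-cell extract DNA (Cy3) were hybridised to 7 custom Agilent tiling arrays, with no dye swap. Per the file headers, the deposited scanner files give spot intensity per channel, and the processed intensity is background-subtracted and multiplied by 1 linear dye factor per channel. Their log10 ratio column is red over green, per the file headers. The deposited value table holds linear ratios of ChIP to extract that are not centred (medians 0.932 to 0.991), and it correlated at 1.0 with the ratios of the processed scanner signals. Feature Extraction versions were 12.0.3.1, 10.7.3.1 (fft3∆ series 2) and 11.5.1.1 (series 3), and protocol 1105 was used for series 3 and 1200 for the rest.

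From these, log2 ratios minus the array median were computed, with no loess or quantile step. Control spots were left out, as were probes with a non-uniform spot or a dim extract signal on any of the 6 H3K9me2 arrays. Probes, 2 kb windows with at least 3 probes and annotated genes (non-coding RNAs included) with at least 2 were each fitted across the whole array with limma 3.58.1 in R 4.3.3 (lmFit and eBayes, group only, all 6 H3K9me2 arrays), with Benjamini-Hochberg adjustment over all of them and a threshold of 0.05. UV21 has 1 array, assumed to vary like the others. Saturated spots were kept. The number of arrays limits the precision. The limma step was tested on simulated data.

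The text names mcp7, ubp8 and ysp2, all other annotated genes of the region with at least 1 probe kept, the nearest tested protein-coding gene on each side (1 of the 2 is not reported here), the Mmi1-target list and the 5 genes most like mcp7. The members and lists were chosen with earlier results of these data known. Sequence and gene models are from RefSeq, ASM294v3. The numbers of series 2 and 3 are shared by WT and fft3∆, but deviations from the group means correlated at 0.0132 and 0.0113, so the series number was not taken as a pairing. Alternatives covered background correction, the source of the ratio, centring, filters, blocks, arrays left out, window and gene placement and the rule for the island's ends.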

Additional observations from a re-analysis of the deposited data

How the results depend on the processing

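With the pericentromeric mean as the centre, the median difference between fft3∆ and WT over all genes moved to 0.49, against -0.10 with the array median. With that shift included, mcp7 and ubp8 stayed low and called (-1.84 and -1.78), while ysp2 became 0.17 and erg11 0.10. The windows from 576001 and 584001 became 0.060 and 0.39. In fft3∆ 2 probes of the region were called lower, against 110 of 33704 over the array. No running mean reached 1, so island widths were 0 bp in UV21 and WT. For UV21 the same centring rests on its extract signal around the centromeres. By the software's ratio the median of all genes became -1.11, mcp7 -3.18, ubp8 -2.98 and ysp2 -1.40. Called lower were 10 probes of the region, against 1022 of 33704 probes and 8054 of 8648 genes over the array. By the processed signals, an alternative chosen after seeing the data, the median became 0.49, mcp7 -1.59 (adjusted p = 0.0421), ysp2 0.19 and the windows from 582001 and 584001 0.023 and 0.037.

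Leaving out 1 array at a time gave -2.55 to -2.24 for mcp7 and -2.80 to -1.94 for ubp8 in fft3∆. The window from 584001 ran from -0.47 to 0.067. With 1 WT array left out, 0 to 5 probes of the region were called, and 0 to 277 over the whole array. Limma's adjusted p ran up to 0.0600 for mcp7 and 0.0619 for ubp8. Over all genes, 12 were then called lower without WT series 1 and 1 without WT series 3, against 394 with all arrays. For UV21 the range was -1.90 to -1.82 for ubp8, with an adjusted p of 0.0230 without either fft3∆ array and in the fit of WT and UV21 alone (-1.86). With the series number as a replicate block, mcp7 differed by -2.55 (adjusted p = 0.0145) and ubp8 by -2.38 (adjusted p = 0.0265) in fft3∆. The block took the window from 582001 to -0.78 (adjusted p = 0.134) and the UV21 window from 580001 to -1.84 (adjusted p = 0.0181), and moved the count of genes called lower in fft3∆ to 123, against 394.

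The island's width depends on its rule. In fft3∆ the mean width was 0 bp, and 810 bp at a limit of 0.5, 960 bp at 0.5 times the peak (1560 and 1860 bp in series 2, and 60 bp in series 3, where it is the single probe 585300 past ysp2 and no part of the mcp7 island) and 30 bp with single probes or normexp. In UV21 it was 360 bp, and 2160 bp at 0.5, 0 bp at 1.5, 1860 bp at 0.5 times the peak and 660 bp with single probes or normexp. In WT it was 3360 bp, and 4260 bp at 0.5, 2360 bp at 1.5 or at 0.5 times the peak (mean of the 3 arrays), 2760 bp with single probes and 3060 bp with non-uniform spots kept. In these settings the cause was not tested beyond the construction of the setting itself. Normexp used median spot signals in place of the planned mean signals. The other settings changed neither a call nor a direction at mcp7 or ubp8.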

Other observations

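The density of TNAAAC sites did not order the listed Mmi1-target genes as their H3K9me2 in WT did. mug9 had the most sites for its length of the 12, at 13.1 per kb, with a WT level of 1.93 ± 0.62 (SD, n = 3). rec8, a meiotic cohesin gene, had 8.03 sites per kb, crs1, a meiotic cyclin-like gene, 7.90 and spo5 6.99, all close to or above the 7.12 of mcp7, yet their WT levels were 0.08 ± 0.19, 0.02 ± 0.21 and 0.07 ± 0.13 (SD, n = 3 each), against 3.03 ± 0.34 for mcp7. mei4, the highest of the list at 4.36 ± 0.27 in WT, had 4.96 sites per kb. These are descriptions over 12 genes, and no test was run on them.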
